A study of Mus musculus with 6 samples.

Results

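The 10 genes described here encode feedback brakes of mitogen-activated protein kinase (MAPK) signaling, and their RNA was measured in lung group 2 innate lymphoid cells (ILC2s) from wild-type (WT) and SIRPα knockout (SIRPα KO) mice. The genes were taken by name from the count table, and all 10 were found among its 17831 genes. They are the phosphatase genes Dusp1, Dusp2, Dusp4, Dusp5, Dusp6, Dusp10 and Dusp16, the Sprouty genes Spry1 and Spry2, and Spred1. WT is the inbred strain labelled CB57BL/6 (CB57BL/6 J in the study's methods), and SIRPα KO mice carry the allele SIRPalphatm1Ynliu/J, a germline mutation present in every cell of the animal. Both genotypes were young adult, age- and sex-matched mice that received IL-33 intranasally on consecutive days. Their lung ILC2s were sorted as CD45+ lineage- CD127+ ST2+ cells and cultured with IL-2 and IL-7, so every library, WT included, comes from IL-33-activated cells, and no unstimulated group was part of the comparison. Each genotype has 3 RNA-seq libraries made from 10 pg of RNA. WT replicates 1 and 2 share a code in the sample descriptions, as do SIRPα KO replicates 2 and 3. The series' design text speaks of duplicates, and nothing in the labels says that the 3 libraries of a genotype came from separate animals. The n of 3 given below therefore counts libraries, and the p-values measure the spread between libraries, part of which may be technical.

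ERK, p38 and JNK are the end kinases of the MAPK cascades, and each is switched on by phosphorylation of a threonine and a tyrosine in its activation loop. Dual-specificity phosphatases (DUSPs) of the MAPK phosphatase type remove both phosphates, while Sprouty and Spred proteins act upstream, between receptors and the RAF kinases. Many of these genes are themselves switched on by ERK or p38 activity, so their RNA is widely read as a record of recent pathway output as well as a brake on it. SIRPα is an inhibitory receptor that binds CD47 and recruits tyrosine phosphatases. The comparison asks whether the RNA of these brakes differs when SIRPα is missing.

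The stretches of DNA just ahead of Dusp5, Dusp6 and Dusp1 are shown because the first pair gave the only unadjusted p-values under 0.05 among the 10 genes and because Dusp1 carries the only full cyclic AMP response element (CRE). Each line gives bases -250 to -51 ahead of the RefSeq start of the gene, on the strand of the gene and in build GRCm38.p6. Dusp5 lies at chr19:53528895-53529094 on the plus strand, Dusp6 at chr10:99262981-99263180 on the plus strand, and Dusp1 at chr17:26508523-26508722 on the minus strand. Capitals mark the CRE (TGACGTCA), its shorter core (TGACG, or CGTCA on the other strand) and the CArG box bound by serum response factor.
Dusp5: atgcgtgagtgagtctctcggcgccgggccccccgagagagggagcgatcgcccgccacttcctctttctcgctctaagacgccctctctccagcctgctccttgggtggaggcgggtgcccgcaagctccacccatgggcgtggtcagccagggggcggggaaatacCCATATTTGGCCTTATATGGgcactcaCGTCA
Dusp6: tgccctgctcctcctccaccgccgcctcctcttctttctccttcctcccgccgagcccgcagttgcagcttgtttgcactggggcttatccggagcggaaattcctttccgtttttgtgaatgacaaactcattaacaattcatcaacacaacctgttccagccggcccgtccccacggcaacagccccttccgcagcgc
Dusp1: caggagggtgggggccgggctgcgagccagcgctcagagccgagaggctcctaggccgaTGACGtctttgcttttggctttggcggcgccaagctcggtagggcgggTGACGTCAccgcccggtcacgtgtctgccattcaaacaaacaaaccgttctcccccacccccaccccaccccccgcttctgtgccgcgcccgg

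Among the 9 genes with an entry in the RefSeq promoter table, Dusp5 was the only one with a CArG box, and it held 2 of them side by side, at bases -82 to -73 and -72 to -63. A CArG box stood in 1.5% of the 32851 mouse promoters searched over the 250 bases ahead of the start. Dusp1 alone held the full CRE, at bases -143 to -136, a motif also found in 1.5% of promoters. The shorter core, which lies inside the full CRE, was in Dusp1, Dusp5 and Dusp16 and in 17.8% of all promoters. The GC box GGGCGG, which is not capitalised above, was in 7 of the 9 and in 32.7% of all promoters. The AP-1 site TGANTCA (6.7% of promoters), the ETS site CCGGAAGT (2.9%) and the STAT site TTCNNNGAA (7.0%) were in none of the 9, which says only that these letters are not in these windows. Both strands were searched, and a match is a description of the letters and not evidence of binding. Dusp4 had no entry.

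The libraries held 13980499 to 19051507 reads on genes. Sirpa, the targeted gene, had 149, 96 and 73 reads in WT and 48, 85 and 28 in SIRPα KO, and its difference of -1.12 on the log2 scale (SE 0.42) missed the threshold (adjusted p = 0.115 by edgeR's quasi-likelihood test), so the KO libraries still carried reads assigned to the gene. All 15 ILC2 markers examined were present, with a summed level of 15560 to 16760 CPM (reads of the gene scaled to equal library size) in WT and 21420 to 21950 in SIRPα KO. Of these 15, 3 were called higher and 2 lower in SIRPα KO, all named after their values were seen. The higher ones were Il5 (log2 fold change 0.49, adjusted p = 0.0138 by edgeR), Il2ra (0.91, adjusted p = 0.0154) and Ptprc (0.9, adjusted p = 0.0484). The lower pair were Thy1 (-2.06, adjusted p = 0.0139) and Id2 (-0.65, adjusted p = 0.0154). Most of the sum was Il5, at a mean of 9190 CPM in WT and 13000 in SIRPα KO, followed by Il2ra at 1840 and 3450. Gata3 and Rora, with a log2 difference of 0.1 each, were not called. The sum of B and plasma cell markers (8 of 9 listed genes were in the table) was 226 to 495 CPM in WT and 23.5 to 88.9 in SIRPα KO, and 5 of the 8 tested passed, all lower. The sum of NK cell markers (6 of 6 in the table) was 17.99 to 25.36 CPM against 1.85 to 4.04, with 3 of 5 tested markers lower. The sum of T cell markers (8 of 10 in the table) was 206 to 274 CPM against 123 to 132. Called lower were 3 of 4 tested markers, although Cd4 was at 0 in every WT library. Most of that sum was Trbc2 (mean 149 CPM in WT and 92.9 in SIRPα KO) and Trbc1 (58.5 and 30). Cd3g, also called lower, was at 18.8 and 3.42 CPM, and Cd3e, at 1.36 and 1.09 CPM, was not called. The other sums overlapped between the genotypes, at 417 to 902 against 496 to 759 CPM for macrophage and dendritic cell markers (12 of 12 in the table, 1 of 9 tested higher), with C1qa, C1qb and C1qc at 0 in WT, at 7.76 to 22.1 against 1.80 to 29.3 for granulocyte and mast cell markers (8 of 10 in the table, 0 of 2 tested called), with Siglecf and Epx at 0 in WT, and at 60.7 to 93.9 against 46.8 to 112 for epithelial and stromal markers (5 of 8 in the table, 1 higher and 1 lower of 4 tested). Most of the macrophage and dendritic cell sum was Chil3, at 371 to 765 CPM in WT and 409 to 643 in SIRPα KO. Among the 9 tested markers of that list, 7 log2 fold changes were positive and 2 negative, with a median of 0.55. The 1 called was Itgam (2.55, adjusted p = 0.0454 by edgeR). The part of these differences in the levels below was not tested, and in bulk RNA fewer cells of a type and less RNA per cell cannot be told apart. Gene length also moved with genotype, since the median log2 fold change ran from -0.55 in the shortest length decile of genes to 0.47 in the longest. The main test does not correct for this trend. For the 10 genes and the lists below, values with an offset for it stand beside results whose call or sign they change. The marker calls above are from the main test alone, and whether they hold with the offset is not shown. WT replicate 3 differed from the other WT libraries along the same axis, by 0.54 in the shortest decile and -0.49 in the longest.

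Dusp6, the cytoplasmic phosphatase that acts on ERK, was by far the most abundant of the 10 transcripts. Its level per kilobase of transcript averaged 74.1 CPM per kilobase over the 6 libraries, with a range of 63.7 to 93.4. Dusp5, a nuclear ERK phosphatase, came next at 24.3 CPM per kilobase (16.3 to 34.6). The ranges of Dusp6 and Dusp5 did not overlap, and neither did those of Dusp5 and Dusp1. Dusp1 (10.1, range 7.56 to 14.1), Spry1 (8.29, range 4.66 to 11.8) and Dusp4 (7.52, range 5.14 to 8.78, all in CPM per kilobase) formed a middle group whose neighbours overlapped. After a gap between Dusp4 and Dusp10, the rest followed without a further gap, with Dusp10 at 3.58 CPM per kilobase, Dusp2 at 1.90, Spred1 at 1.85, Dusp16 at 1 and Spry2 at 0.804. In WT cells Dusp6 stood at the 92.1th percentile of 13486 genes ranked by level per kilobase, Dusp5 at the 79.5th, and Spry2 at the 15.5th. Dusp6 alone supplied 53.1% to 64.3% of the reads of the 10 genes in each library. The length used was that of the longest transcript, and with the summed exon length the WT level of Dusp1 dropped to 7.63 CPM per kilobase and that of Dusp16 to 0.660.

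**Figure D1:**
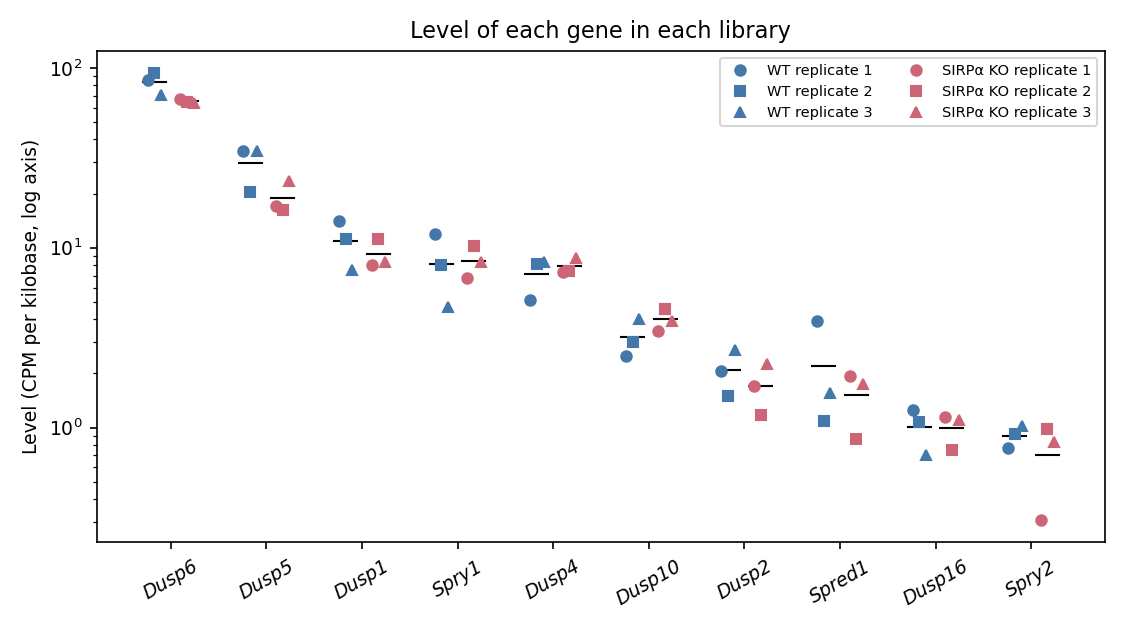
Level of each of the 10 genes in every library, in CPM per kilobase of the longest transcript on a log axis. Blue points are WT, red points SIRPα KO, symbols give the replicate and short lines the group means. Dusp6 lies above every other gene in all 6 libraries, and WT replicate 1 stands apart for Spred1, as does SIRPα KO replicate 1 for Spry2.

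None of the 10 genes passed an adjusted p of 0.05 by edgeR's quasi-likelihood test, against 11.7% of the 13623 genes tested, a share made up of 5.94% with more and 5.81% with less RNA in the knockout. DESeq2 also called 0 of the 10, against 18% of all genes. An unadjusted p under 0.05 was given by 2 of the 10, Dusp5 and Dusp6, both lower in SIRPα KO, in edgeR and in DESeq2, against 32.0% of all genes in edgeR and 28.3% in DESeq2. The genotypes did not overlap for 1 of the 10, Dusp6, against 42.8% of all genes. Of the 10 log2 fold changes 7 were negative and 3 positive, with a median of -0.27 beside a median of -0.03 over all genes. The 95% interval excluded a fold change of 2 in either direction for 6 of the 10 but included 0 on the log2 scale for 8. Read depth differed widely among the genes, from 10 reads of Spry2 to 4149 of Dusp6 in a library.

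**Figure D2:**
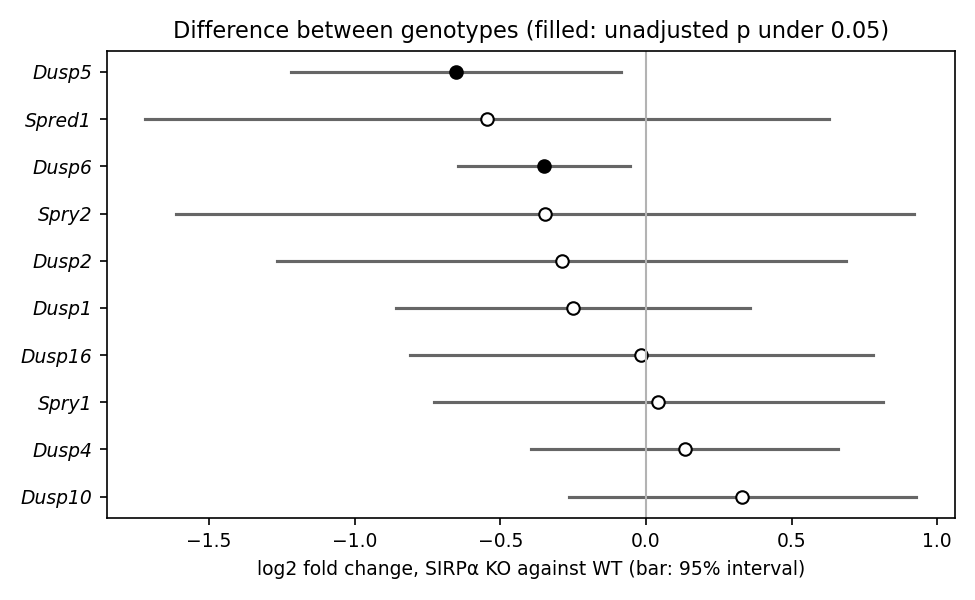
The log2 fold change of each gene, SIRPα KO against WT, with its 95% interval (bars) from edgeR's quasi-likelihood test. Filled points have an unadjusted p under 0.05. The intervals of Dusp5 and Dusp6 alone lie below 0, and those of Spry2 and Spred1 are the widest.

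Dusp6 (ENSMUSG00000019960.8, mm10 chr10:99263231-99267489, plus strand) read 239, 261 and 197 CPM in WT replicates 1 to 3 and 187, 181 and 178 CPM in SIRPα KO. Every SIRPα KO library was thus below every WT library, with WT replicate 3 close to the KO range. The means were 232 ± 32.7 CPM in WT and 182 ± 4.63 in SIRPα KO (SD, n = 3 each), a fold change of 0.784 with a 95% interval of 0.639 to 0.963. On the log2 scale the difference was -0.35 (SE 0.13), with an unadjusted p of 0.0257 and an adjusted p of 0.108 by edgeR's quasi-likelihood test, which does not pass the threshold. The call rested on processing choices, since over 16 alternatives the log2 difference stayed negative, between -0.45 and -0.26, while the adjusted p ran from 0.00928 to 0.377. It passed when WT replicate 3 was left out (-0.45, adjusted p = 0.00928, with 18.4% of all genes called), with upper quartile scaling (-0.45, adjusted p = 0.0436, with 12.6% called) and with an offset that removes each library's trend on length and GC (-0.42, adjusted p = 0.0459, with 8.92% called). It was furthest from passing when libraries with a shared code were summed, leaving 2 against 2 (-0.27, adjusted p = 0.377).

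Dusp5 (ENSMUSG00000034765.6, mm10 chr19:53529109-53542431, plus strand) had the most negative log2 fold change of the 10. It read 84.9, 50.2 and 85.5 CPM in WT replicates 1 to 3 and 42.0, 40.3 and 58.3 CPM in SIRPα KO. A pair of WT libraries lay well above all KO libraries, but WT replicate 2 fell below SIRPα KO replicate 3, so the groups overlapped. The means were 73.5 ± 20.2 and 46.9 ± 9.96 CPM (SD, n = 3 each), and the log2 difference was -0.65 (SE 0.25), with an unadjusted p of 0.0291 and an adjusted p of 0.115 by edgeR's quasi-likelihood test. The fold change was 0.637, with a 95% interval of 0.430 to 0.943. Over the alternatives the log2 difference ran from -0.86 to -0.43 and the adjusted p from 0.0331 to 0.329. Dusp5 passed once, when WT replicate 2 was left out (-0.86, adjusted p = 0.0331, with 16.3% of all genes called). With the length and GC offset the log2 difference was -0.45 (adjusted p = 0.244). An antisense gene, AC137853.2, overlaps Dusp5 on the minus strand, and the library kit is not stated to keep strand.

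The other nuclear phosphatases did not pass and their groups overlapped. Dusp1 (ENSMUSG00000024190.7, mm10 chr17:26505590-26562128, minus strand), an early response phosphatase of p38, JNK and ERK, read 32.6, 25.7 and 17.5 CPM in WT and 18.5, 26.0 and 19.3 CPM in SIRPα KO. The WT libraries alone spanned more than the KO libraries, and the log2 difference was -0.25 (SE 0.26), with a fold interval of 0.552 to 1.28. The gene record of Dusp1 overlaps Ergic1 on the plus strand, which had 1930 to 2926 reads per library and a log2 fold change of 0.15 (adjusted p = 0.392 by edgeR), so without strand some reads could belong to either gene. Dusp4 (ENSMUSG00000031530.6, mm10 chr8:34807297-34819894, plus strand), a nuclear phosphatase induced by ERK, read 14.1, 22.1 and 22.8 CPM in WT and 20.1, 20.4 and 24.1 CPM in SIRPα KO. WT replicate 1 was the only low library, and the log2 difference of 0.13 (SE 0.23) became -0.06 without it. Dusp2 (ENSMUSG00000027368.6, mm10 chr2:127336159-127338376, plus strand), a phosphatase induced in activated lymphocytes, was low at 3.34, 2.42 and 4.37 CPM in WT and 2.75, 1.89 and 3.66 CPM in SIRPα KO, or 34 to 66 reads a library. The log2 difference was -0.29 (SE 0.42), and the length and GC offset turned it to 0.19.

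Dusp10 and Dusp16, which act on p38 and JNK more than on ERK, gave no call either. Dusp10 (ENSMUSG00000039384.8, mm10 chr1:184013302-184075636, plus strand) had the highest log2 fold change of the 10, at 0.33 (SE 0.26, adjusted p = 0.405 by edgeR's quasi-likelihood test). It read 7.02, 8.39 and 11.2 CPM in WT and 9.65, 12.8 and 10.98 CPM in SIRPα KO, and only WT replicate 3 lay within the KO range. The difference was positive under all 16 alternatives, between 0.19 and 0.54, and passed under none (smallest adjusted p = 0.137). Dusp16 (ENSMUSG00000030203.17, mm10 chr6:134715468-134792625, minus strand) read 6.38, 5.48 and 3.58 CPM in WT and 5.82, 3.83 and 5.64 CPM in SIRPα KO. Its means of 5.14 ± 1.43 and 5.10 ± 1.10 CPM (SD, n = 3 each) were the closest pair of all, with a log2 difference of -0.02 and a 95% interval of -0.81 to 0.78. Antisense genes that are not in the table overlap both records, 1700056E22Rik at Dusp10 and Gm36328 at Dusp16.

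None of the Sprouty and Spred genes passed, and each had a library that stood apart or a wide spread within a genotype. Their coefficients of variation were 44% for Spry1 and 69.4% for Spred1 in WT and 50.2% for Spry2 in SIRPα KO. Spry1 (ENSMUSG00000037211.12, mm10 chr3:37639947-37644598, plus strand), which restrains signaling from receptor tyrosine kinases to RAS, read 32.8, 22.2 and 12.9 CPM in WT and 18.7, 28.3 and 23.0 CPM in SIRPα KO. The WT libraries were both the highest and the lowest of the 6, and the log2 difference was 0.04 (SE 0.33), with a fold interval of 0.603 to 1.76. Leaving out WT replicate 1 moved it to 0.42, and leaving out WT replicate 3 to -0.23. The antisense gene Gm42922, which overlaps Spry1, had 0 to 7 reads a library. Spry2 (ENSMUSG00000022114.5, mm10 chr14:105891947-105896819, minus strand), a close relative with a like role, had 28, 27 and 32 reads in WT and 10, 39 and 28 in SIRPα KO. SIRPα KO replicate 1 was the single low library, and the log2 difference moved from -0.35 (SE 0.55) to 0.01 without it. Spred1 (ENSMUSG00000027351.14, mm10 chr2:117121374-117182279, plus strand), which brings the RAS-inactivating protein neurofibromin to the membrane, read 23.6, 6.54 and 9.40 CPM in WT and 11.6, 5.20 and 10.5 CPM in SIRPα KO. WT replicate 1 was well above every other library, including WT replicate 2 with the same code. The log2 difference of -0.55 (SE 0.51, adjusted p = 0.487 by edgeR's quasi-likelihood test) turned to 0.19 without WT replicate 1. With the length and GC offset it was -1.07 (adjusted p = 0.217), and over the alternatives the adjusted p ran from 0.0984 to 0.814.

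**Figure D3:**
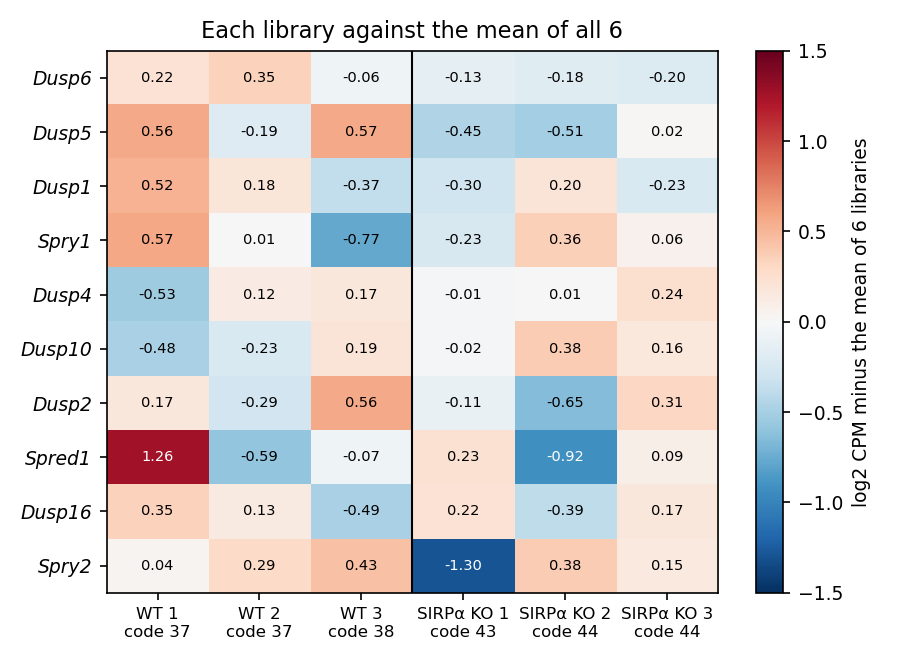
Deviation of each library from the mean log2 CPM of all 6 libraries, by gene, with the code of each library below it. Red is above and blue below the mean. Dusp6 deviates by 0.35 at most, whereas Spred1 in WT replicate 1 deviates by 1.26 and Spry2 in SIRPα KO replicate 1 by -1.3.

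The 10 genes did not share a pattern across the libraries. Over the 6 libraries, whose points also carry the genotype contrast, the depth and the length trend, Dusp1 was most like Spry1 (Pearson r of log2 CPM 0.86), Dusp2 most like Dusp5 (0.82), Dusp4 most like Dusp10 (0.69) and Dusp16 most like Spred1 (0.63). Spred1 was most like Dusp5 (0.64), Spry2 most like Dusp5 (0.38), and Dusp6 most like Dusp1 (0.62). Dusp6 and Dusp10 ran opposite to each other (-0.81). Beyond the 10 genes, the likeness to Dusp6 was greatest for Icos (0.996), a costimulatory receptor of ILC2s and T cells, Cd53 (0.986), a tetraspanin of leukocytes, and Pvt1 (0.984), a long noncoding RNA gene. Among 9139 genes compared, 37 reached an r of 0.95 with Dusp6, which with 6 libraries is a description and carries no test. Within WT the coefficient of variation exceeded that in SIRPα KO for 8 of the 10 genes, including Dusp6 at 14.1% against 2.54%.

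**Figure D4:**
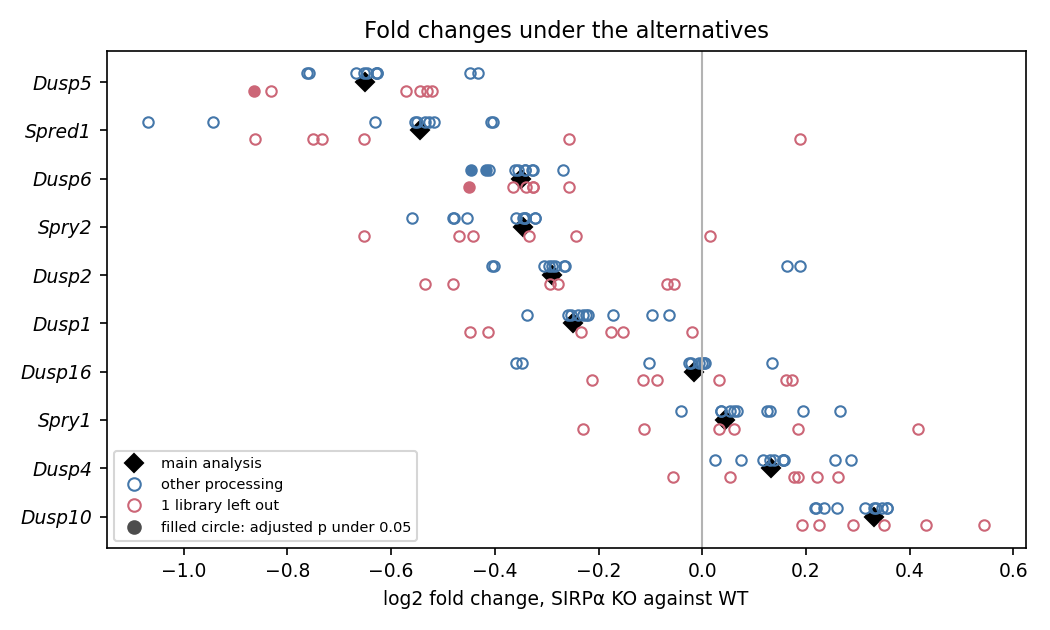
The log2 fold change of each gene in the main analysis (black diamonds), under other processing (blue circles) and with 1 library left out (red circles). Filled circles have an adjusted p under 0.05. Dusp1, Dusp5, Dusp6 and Dusp10 keep the sign of the main analysis throughout, while the other 6 genes cross 0 under at least 1 alternative.

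The rest of the MAPK pathway was read from 6 lists, and heat shock genes from another. These 7 lists held 116 genes in all, of which 102 were tested and 12 passed, 7 of them up and 5 down in the knockout. The share called was 11.8%, next to 11.7% of all genes, and 8.79% without the heat shock genes, so the count is near the background and is no result about the pathway. The shares of single lists are to be read against the same 11.7% (5.94% higher and 5.81% lower). Among the other dual-specificity phosphatases 1 of 10 tested genes passed, the atypical phosphatase gene Dusp28 (6.76 ± 2.47 CPM in WT and 2.39 ± 0.46 in SIRPα KO, log2 fold change -1.5, adjusted p = 0.0463 by edgeR), and the median difference of that list was -0.19 on the log2 scale. Among the other Sprouty, Spred and RAS inhibitors 1 of 13 passed. It was Dok2, an adaptor that restrains RAS, which fell from 289 ± 36.7 to 163 ± 13.1 CPM (SD, n = 3 each, log2 fold change -0.82, adjusted p = 0.0149 by edgeR), and the median of the list was -0.22. With the length and GC offset neither passed, at -0.96 for Dusp28 (adjusted p = 0.117) and -0.45 for Dok2 (adjusted p = 0.0501). No test was made of the lists themselves.

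The kinases gave calls in both directions. In the list of ERK, p38 and JNK kinases and the MAP2Ks that activate them, 2 of 15 tested genes passed, 1 in each direction. Mapk3, which encodes ERK1, fell from 67.7 ± 7.35 to 35.6 ± 1.76 CPM (SD, n = 3 each, log2 fold change -0.93, adjusted p = 0.0144 by edgeR). With the length and GC offset, Mapk3 still passed at -0.56 (adjusted p = 0.0447), and over the alternatives its adjusted p ran from 1.57e-07 to 0.13. Of the 20 tested genes of the RAS and RAF relay, the RAS family gene Mras rose (38.3 ± 6.28 to 80.7 ± 4.76 CPM, log2 fold change 1.08, adjusted p = 0.0136) and Rasgrp2, an exchange factor that activates RAP, fell (2.23 ± 0.0858 to 0.377 ± 0.103 CPM, log2 fold change -2.54, adjusted p = 0.0252). At 0.315 to 0.496 CPM in SIRPα KO, Rasgrp2 had few reads, and counting error limits its fold change. DESeq2 gave Rasgrp2 no adjusted p, and it passed in 8 of the 16 alternatives. Of the 9 tested kinases downstream of ERK and p38, Rps6ka5, which encodes the nuclear kinase MSK1, rose from 32.5 ± 6.34 to 73.1 ± 1.03 CPM (log2 fold change 1.17, adjusted p = 0.0136).

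Immediate early genes and heat shock genes were read from a list each. Of 24 tested genes in the immediate early list, many of which respond to MAPK activation, 15 had negative and 9 positive log2 fold changes. Their median was -0.29, which was -0.05 with the length and GC offset. Only Ier2 passed (4.17% of the list), falling from 139 ± 17.4 to 86.1 ± 3.81 CPM (SD, n = 3 each, log2 fold change -0.70, adjusted p = 0.0215 by edgeR), and with the length and GC offset its difference was -0.17 (adjusted p = 0.309). The heat shock list was chosen with earlier results of these data known, so its share of calls is a description and no test. Of its 11 genes, all tested, 8 had positive and 3 negative log2 fold changes. Their median was 0.45, or 0.34 with the length and GC offset. By edgeR 4 were called higher (36.4%, beside 5.94% of all genes) and 0 lower. These were the chaperone genes Hspd1 (0.75, adjusted p = 0.0109), Hspa1b (1.91, adjusted p = 0.0134), Hsp90ab1 (0.45, adjusted p = 0.0178) and Hsph1 (0.68, adjusted p = 0.0316, all as log2 fold changes tested by edgeR), of which Hsph1 did not pass with the offset (0.34, adjusted p = 0.0904). Hspa1b has a near-identical sister gene, Hspa1a, so the share of reads given to each is uncertain. Over the alternatives the adjusted p ran up to 0.13 for Hspd1 and up to 0.42 for Ier2, 7 of the 12 genes called in these lists passed with the offset, and 0 of the 12 passed when any 1 SIRPα KO library was left out or when libraries with a shared code were summed.

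**Figure D5:**
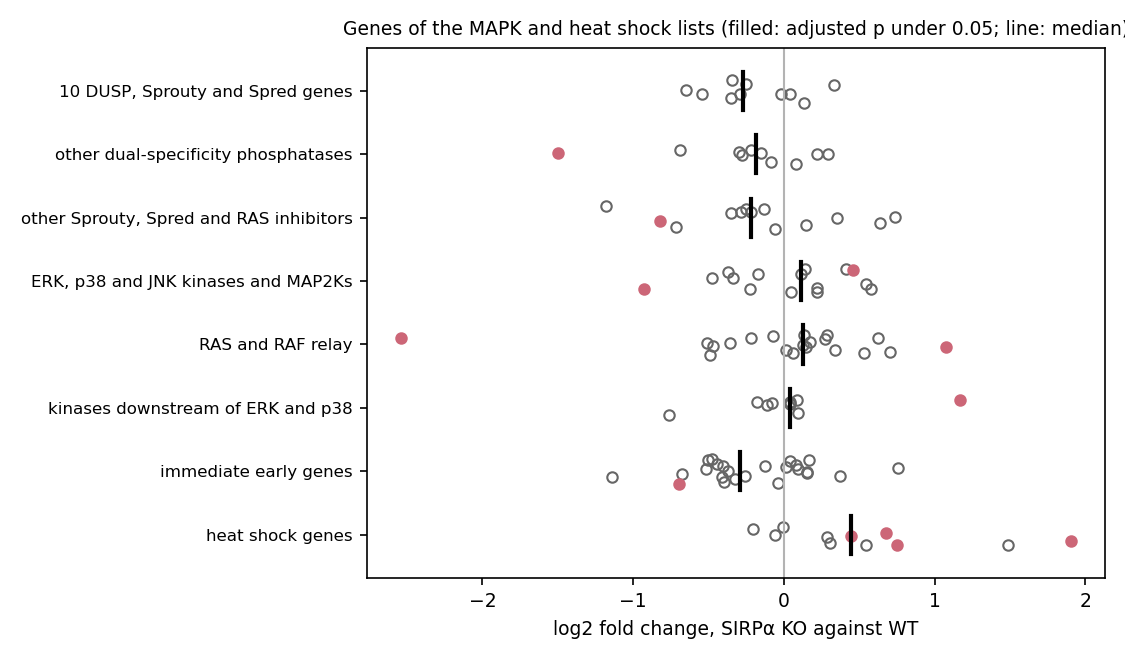
The log2 fold change, SIRPα KO against WT, of each tested gene in the 10 feedback genes and in the 7 lists, 6 of the MAPK pathway and 1 of heat shock genes. Filled points have an adjusted p under 0.05 by edgeR's quasi-likelihood test and the vertical lines are medians. The 10 feedback genes hold no filled point and have a median of -0.27, and the heat shock genes have 4 filled points, all above 0.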

How the data were processed

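RNA from sorted, cultured lung ILC2s was sequenced as 6 libraries, 3 of each genotype, with 13980499 to 19051507 reads on genes. The authors deposited estimated counts (expected counts) per gene, made in Partek with STAR on mm10, counted against GENCODE M21 per the methods. The versions are Partek 10.0 and STAR 2.7.8 in the submitters' processing notes, and the methods name others. The table holds 17831 genes, none with a total under 10 reads, and 56.9% to 60.7% of its values per library are exactly whole. Values were rounded, then tested in R 4.3.3 with edgeR 4.0.16 (quasi-likelihood test, TMM factors, default filter with a minimum count of 10, genotype as the only term, all 6 libraries, Benjamini-Hochberg adjustment over 13623 genes, threshold 0.05). An exact permutation test of 3 against 3 libraries cannot give a p below 0.1, and none is reported. CPM is the usual read share of a library after TMM scaling. DESeq2 1.42.0 and 15 further alternatives were run, and the closing section gives those that moved a result. The offset removed a smooth trend of each library on transcript length and GC content, fitted on 8901 genes.

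Replicate pairs differed beyond counting noise (chi-square per degree of freedom 7.99 to 76.5), as repeat libraries of one sample also could. Libraries with a shared code were kept apart in the main test and summed in an alternative. The scripts were tested on simulated data with known changes. When a length trend was added to the simulated data, the main test called many unchanged genes, and with the offset it called few. No other gene's transcripts matched any of the 10 at 95% identity over 50% of the length (BLAST+ 2.17.0). The members and lists were chosen with earlier results of these data known. All 10 genes are named, with up to 5 called genes a list by smallest p, the 3 genes most like Dusp6, the member most like each member, and Sirpa. The values of 1 called gene of the lists are not reported here. Promoter sequences are from RefSeq (GRCm38.p6), and 9 of 10 genes matched. Figures were drawn with matplotlib 3.10.9.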

Additional observations from a re-analysis of the deposited data

How the results depend on the processing

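Leaving out 1 library at a time moved the genes called over all genes from 1600 to between 16 and 2606, the calls in the 7 gene lists from 12 to between 0 and 19, the calls among the 10 feedback genes from 0 to between 0 and 1, those whose groups do not overlap from 1 to between 1 and 2 (47.2% to 55.4% of all genes), and their median log2 fold change from -0.269 to between -0.252 and -0.037. All 3 fits without a SIRPα KO library called 16 or 17 genes in all. Across these fits the log2 fold change ran from -0.213 to 0.174 for Dusp16, -0.229 to 0.417 for Spry1, -0.056 to 0.261 for Dusp4, -0.863 to 0.189 for Spred1 and -0.652 to 0.015 for Spry2. DESeq2 called 3214 genes in all and 21 in the lists, and summing libraries with a shared code called 10 (9 higher and 1 lower) and 0, with 3 of the 10 feedback genes not overlapping against 62.9% of all genes. Upper quartile scaling called 1 of the 10 (Dusp6), moved the median of all genes to -0.125 and split the calls into 703 higher and 1010 lower, where the main split was 809 and 791. The length and GC offset called 1 (Dusp6), with 4 not overlapping against 41.8% of all genes. With the replicate block as well it called 373 genes in all, 3 in the lists and 0 of the 10, with 4 not overlapping. The sign turned for Dusp16 with DESeq2 (0.006), with no filter (0.004) and with codes summed (0.134), for Spry1 with upper quartile scaling (-0.04), and for Dusp2 with the offset (0.189) and with the offset and block (0.164). The cause was not tested. Median-of-ratios factors, library totals alone and a filter of at least 1 CPM in 3 libraries called 1609, 1561 and 1743 genes in all and 0 of the 10.

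The deviations of same-numbered libraries correlated at -0.139, 0.183 and 0.031, and those of pairs with different numbers at -0.263 to 0.229. With 3 libraries a genotype, these values cannot tell whether same-numbered libraries were paired. The replicate block alone called 1118 genes in all and 0 of the 10, with a median of -0.258. It called 9 of the 12 list genes and changed no call among the 10. Dusp1 and Dusp10 kept their direction and their side of the threshold in all 16 alternatives, and Dusp5 and Dusp6 kept their direction. At 10 to 39 reads of Spry2 in SIRPα KO and 34 to 66 of Dusp2 a library, counting error limits both.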
